A study of Mus musculus with 6 samples.

Results

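The alpha-defensins and other genes of Paneth cells were followed in mouse ileum, the distal stretch of the small bowel. The members are all rows whose gene symbol in the deposited tables starts with Defa, 18 in number, and 8 further Paneth cell genes (Lyz1, Ang4, Pla2g2a, Mmp7, Habp2, Cd24a, Wnt3 and Kit), 26 of 23410 rows listed in at least 1 of the tables. The rule uses gene names alone, although it was drawn up with earlier results of these data known. Paneth cells sit at the base of the crypts of the small intestine, beside the stem cells, and release granules filled with antimicrobial proteins into the crypt lumen. Alpha-defensins, called cryptdins in mice, are small cationic peptides with a fixed pattern of cysteines that disrupt bacterial membranes. They are made as longer precursors, which the protease matrilysin cuts into the active peptide.

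The ileum came from C57BL/6 mice 24 weeks of age, 3 wild type and 3 TLR4ΔIEC. TLR4ΔIEC is an intestinal epithelial conditional knockout of Toll-like receptor 4 (Tlr4), which senses bacterial lipopolysaccharide. The promoter that drives the recombination is not given in the sources used here. Each mouse had its own barcoded whole-transcriptome library, but the deposited values are 1 column of average coverage per genotype, in reads per base, shared by its 3 mice. Each value below is thus that of a pool, without a measure of variation among animals, and differences have no replicate check and no p-value. The design text says that each genotype's libraries were pooled for sequencing, so genotype and pool cannot be told apart.

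The columns listed 22724 entries in wild type and 22687 in TLR4ΔIEC, with coverage summing to 699800 and 698473. For comparison both were put on 1 scale of units with a mean column total of 1000000, the TLR4ΔIEC column being divided by a factor 1.05 larger, and log2 ratios were taken of units plus 1. Genes averaging 5 units or more, 8891 in all, were analysed. Across them the median log2 ratio was 0.03 and the central 50% lay between -0.26 and 0.27. The coverage of Tlr4 itself was 1.98 (wild type) and 1.60 (TLR4ΔIEC), too low to be analysed. A deletion in epithelial cells leaves the gene in the other cells of the tissue. All 6 ileal markers were analysed. They ran from Fabp6, the ileal bile acid binding protein, at 15350 and 13628 units to the hormone gene Fgf15 at 28.7 and 18.1. Of the 6, 5 had a log2 ratio below 0, where 47.4% of all genes analysed did, and the median of the 6 was -0.37. A higher value in whole tissue can come from more cells of a type or more RNA per cell, which cannot be told apart here.

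Many alpha-defensin genes of the cluster on chromosome 8 differ by few bases, so their sequences decide which rows can be read as separate measurements. Coding sequences from GENCODE vM21 (GRCm38, the assembly of mm10) were matched by RefSeq accession to 13 of the 18 member rows and to 15 further rows that the files list under other names but which RefSeq names Defa. The last 41 codons, 5′ to 3′ with the stop codon, are shown for 6 members from some of the sequence groups described below. Groups with another cysteine layout, such as that of Gm7849 and Gm7861, are not among them. Capitals mark in-frame cysteine codons.
Defa24 (chr8:21734494-21735471, plus strand): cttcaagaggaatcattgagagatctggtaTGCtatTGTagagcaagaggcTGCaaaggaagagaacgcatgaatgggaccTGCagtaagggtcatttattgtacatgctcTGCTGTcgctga
Defa23 (chr8:21055047-21056016, plus strand): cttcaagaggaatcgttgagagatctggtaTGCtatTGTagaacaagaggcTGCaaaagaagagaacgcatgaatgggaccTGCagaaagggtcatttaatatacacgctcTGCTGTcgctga
Defa2 (chr8:21378515-21379495, plus strand): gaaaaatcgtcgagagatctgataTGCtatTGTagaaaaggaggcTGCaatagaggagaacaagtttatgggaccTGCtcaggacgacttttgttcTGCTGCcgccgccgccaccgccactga
Defa21 (chr8:21025545-21026516, plus strand): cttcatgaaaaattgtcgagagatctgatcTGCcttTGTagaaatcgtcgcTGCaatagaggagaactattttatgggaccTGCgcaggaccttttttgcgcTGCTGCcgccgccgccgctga
Defa22 (chr8:21162277-21163249, plus strand): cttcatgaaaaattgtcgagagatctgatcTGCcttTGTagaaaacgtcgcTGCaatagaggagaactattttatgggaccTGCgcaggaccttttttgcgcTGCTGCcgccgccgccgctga
Defa5 (chr8:21297439-21298375, plus strand): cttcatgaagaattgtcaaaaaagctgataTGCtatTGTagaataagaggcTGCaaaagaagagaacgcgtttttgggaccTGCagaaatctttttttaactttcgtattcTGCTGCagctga

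The coordinates are those of the whole transcripts, each of which has 2 exons. Defa24, Defa23, Defa2, Defa21, Defa22 and Defa5 carry 6 cysteine codons, with 1, 4 and 9 other codons between the leading ones and an adjacent pair at the end. Before that pair there are 9 other codons in Defa24, Defa23 and Defa5 but 6 in Defa2, Defa21 and Defa22. The shorter spacing is thus shared by the alpha-defensin members with lower values in TLR4ΔIEC, Defa21 and Defa22, and by Defa2, which was higher. Over the 378 pairs of compared coding sequences, identity ran from 61.1% to 100%, with a median of 82.5%. Rows linked by at least 97% identity fell into 10 groups.

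**Figure D1:**
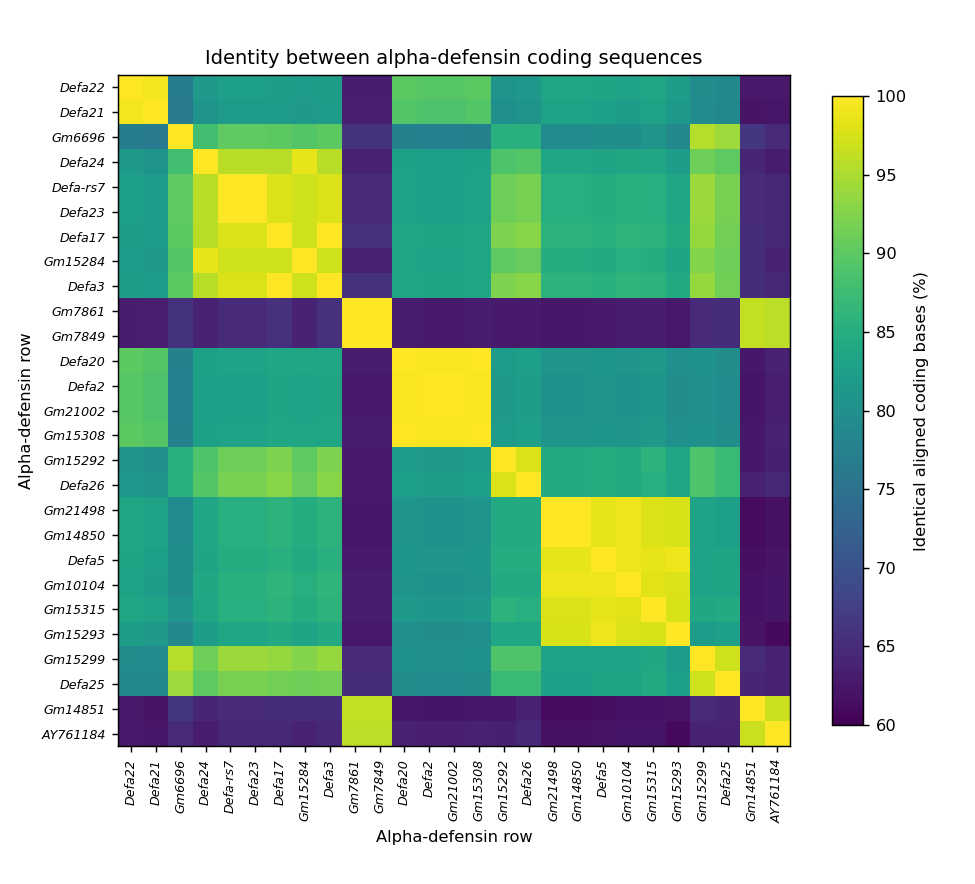
Percentage of identical aligned coding bases between 27 alpha-defensin rows, with 1 row and 1 column for each and colour for identity. Bright blocks are groups of near-identical genes, such as Defa2, Defa20, Gm15308 and Gm21002, and Gm14851, AY761184, Gm7849 and Gm7861 stand apart from the rest.

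Defa23 and Defa-rs7 (named Defa31 by RefSeq) had the same coding sequence, 282 of 282 bases. Their values rested on nearly equal sums of read bases (coverage times the recovered length), 3866329 and 3866418 in wild type and 4339173 and 4339241 in TLR4ΔIEC, so they are not separate measurements. Each of these rows lists its RefSeq accession 2 times. The recovered lengths were 836 and 838 bases, against transcripts of 411 and 377, so neither value need be that of a single locus. Defa17 and Defa3 also had identical coding sequences, and Defa2 and Defa20 differed at 1 of 288 bases. Of the 50-base stretches of the transcripts, 100% for Defa2, Defa20 and Defa-rs7 occurred in another gene's transcript, against 28.1% for Defa24. The share was 72.9% for Defa21 and 74.9% for Defa22, which differed from each other at 2 of 282 bases. Counting only genes outside a row's own sequence group, the shares were 2.17% and 4.32% for this pair, 2.43% for Defa24, 2.45% for Defa5 and 5.04% for Defa2, so for these rows the sharing lay mostly within groups. The placement by the authors of reads that match several copies is not stated in the labels.

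The proximal promoters were nearly as alike. The 100 bases before the transcription start (RefSeq, GRCm38.p6) are shown for 3 members whose ratios differ, with matches to TATAAA and to CTTTGAT in capitals, the latter a core motif of TCF/LEF factors of the Wnt pathway, which on this strand reads ATCAAAG.
Defa2 (chr8:21378417-21378516, plus strand): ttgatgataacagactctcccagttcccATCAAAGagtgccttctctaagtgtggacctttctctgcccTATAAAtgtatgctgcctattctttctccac
Defa21 (chr8:21025445-21025544, plus strand): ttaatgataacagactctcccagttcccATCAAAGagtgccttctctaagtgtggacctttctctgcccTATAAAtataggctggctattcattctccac
Defa23 (chr8:21054940-21055039, plus strand): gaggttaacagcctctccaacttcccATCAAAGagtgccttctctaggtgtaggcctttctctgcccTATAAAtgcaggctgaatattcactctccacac

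Windows of 300 bases, 250 of them before the start, were searched on both strands for TATAAA and for the core written as CTTTGAT or, with other closing letters, as CTTTGAA or as CTTTGTA or as CTTTGTT. All 6 windows of alpha-defensin members (Defa2, Defa20, Defa21, Defa22, Defa23 and Defa-rs7) held both TATAAA and CTTTGAT, while 13.6% and 3.73% of 32851 windows of all genes did. None of the 6 held another of the CTTTG motifs, which 5.14% (CTTTGAA), 3.63% (CTTTGTA) and 5.85% (CTTTGTT) of all windows did. In the stretches shown the TATAAA and CTTTGAT matches do not overlap. These windows are near copies and do not count as 6 independent cases. Of the 16 windows of all alpha-defensin rows in the table, 13 held CTTTGAT and 15 held TATAAA. Gm14851, Gm7849 and Gm7861 lacked CTTTGAT, and Gm6696 lacked TATAAA. Among the other Paneth cell members, the windows of Ang4, Habp2, Kit and Lyz1 held none of the motifs, and Wnt3 held only CTTTGTT. Mmp7 held TATAAA before its upstream start. Its CTTTGAT match lay just after that start, and the same site fell in the window of its other start, which held no TATAAA. Defa21 and Defa22 were identical over all 250 bases before the start, and Defa2 and Defa21 shared 245 of them. Defa21 and Defa22, with ratios below 0, and Defa2, with a ratio above 0, thus had almost the same letters there. Defa26, Defa25 and Defa5, with higher ratios than Defa2, had no window.

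Alpha-defensin rows led the coverage of the genes analysed in both genotypes, and most were slightly higher in the TLR4ΔIEC column. Of the 18 rows, 17 were listed in both columns and 16 reached the level for analysis. Of these 16, 14 had a log2 ratio above 0, where 52.6% of all genes analysed did, and 2 lay below 0, namely Defa21 and Defa22, where 47.4% of all genes did. Their median log2 ratio was 0.27, between -0.27 for Defa22 and 0.55 for Defa26, and the median of all genes was 0.03. No alpha-defensin member differed by 1.5-fold, a size reached upward by 6.57% and downward by 10.2% of all genes.

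The Defa6 and Defa24 rows had the highest coverage of all genes analysed in both columns. The Defa6 row had no match by accession in the RefSeq and GENCODE releases used. Its locus and its sharing of sequence with other copies were thus not determined. Defa6 stood at a coverage of 36162 (wild type) and 40300 (TLR4ΔIEC), a log2 ratio of 0.09. Defa24 stood at 35354 and 38802, a log2 ratio of 0.07. Together these rows held 10.2% of the summed coverage in wild type and 11.3% in TLR4ΔIEC. The 17 member rows held 19.7% and 22.3%, and with the 15 rows under other names 26.0% and 30.6%. Since rows of near-identical genes may count the same reads, these shares describe the tables and are not shares of RNA molecules.

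**Figure D2:**
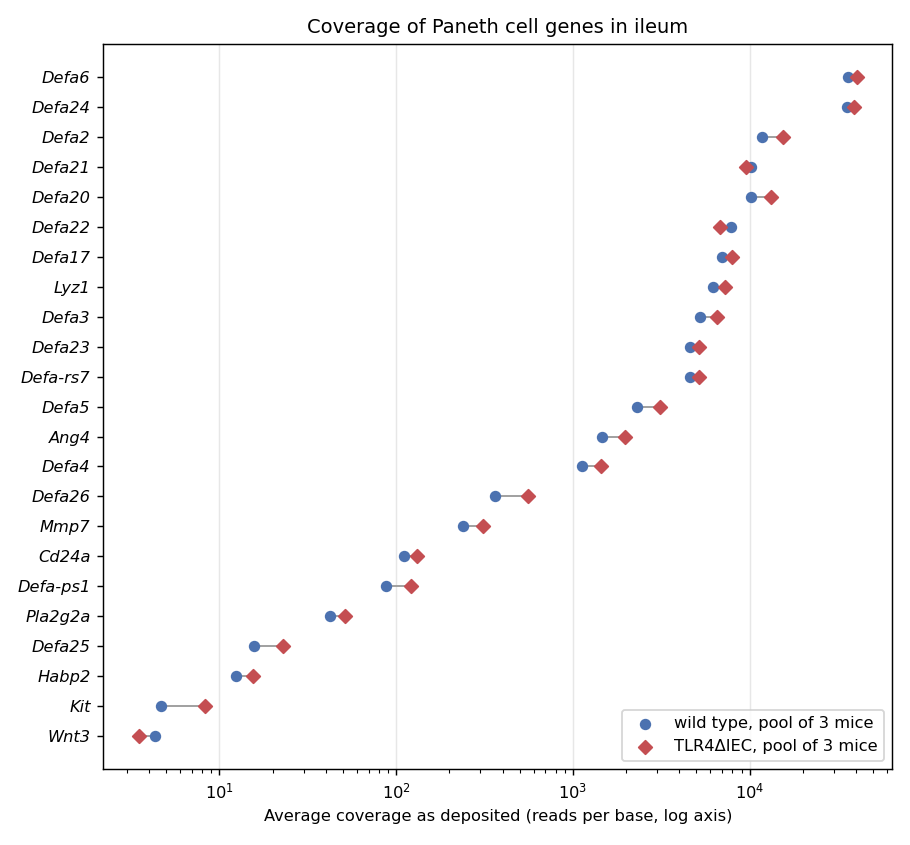
Deposited average coverage (reads per base, log axis) of 23 of the members analysed, 1 circle for the wild type pool and 1 diamond for the TLR4ΔIEC pool per gene. Members span from Wnt3 at 4.30 to Defa6 at 36162 in wild type, and the diamond lies left of the circle only for Defa21, Defa22 and Wnt3.

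Defa2 was the third in wild type among the members, at a coverage of 11746 (wild type) and 15549 (TLR4ΔIEC), and its near copy Defa20 was at 10188 and 13191. Their log2 ratios were 0.34 and 0.30, or 1.26-fold and 1.23-fold higher in TLR4ΔIEC. Gm15308 and Gm21002, of the same sequence group, stood at 0.35 each. All 50-base stretches of these 4 rows occur in another gene's transcript, so they are not separate measurements.

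Defa21 and Defa22 were the only ones of the 16 alpha-defensin members analysed with lower values in TLR4ΔIEC, and they were lower under every scaling tried. Defa21 had a coverage of 10238 (wild type) and 9484 (TLR4ΔIEC), a log2 ratio of -0.18. Defa22 had 7841 and 6816, a log2 ratio of -0.27, or 1.21-fold lower. Among all genes analysed these ratios lay at the 31.0th and 24.5th percentile, so their size was common, and they differed from the other alpha-defensin members in lying below 0. As the pair shares most of its sequence, it counts as 1 observation.

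Among the group around Defa24, Defa17 had a coverage of 6949 (wild type) and 7901 (TLR4ΔIEC), and Defa3 had 5237 and 6567. Their log2 ratios were 0.12 and 0.26. Defa23 (4625 and 5190) and Defa-rs7 (4614 and 5178) both stood at 0.10. The 6 rows of the group, with Gm15284 at 0.21, thus lay between 0.07 and 0.26, below all 4 rows of the Defa2 group.

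Ratios were mostly larger among the less abundant alpha-defensin members. Defa5 had a coverage of 2294 (wild type) and 3119 (TLR4ΔIEC), a log2 ratio of 0.37, and 5 rows of its group under other names ran from 0.37 to 0.60. Defa4, which like Defa6 had no match in RefSeq or GENCODE, stood at 1130 and 1440, a log2 ratio of 0.28. Defa26, at 363 and 558, had the highest ratio of the alpha-defensin members, 0.55 or 1.46-fold, although Gm15292, of the same sequence group, was at 0.22. Defa25, weakly covered at 15.6 and 23.1, had a log2 ratio of 0.47.

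Over the 16 rows analysed, Spearman's rho between the mean level and the log2 ratio was -0.676, a description over rows that share sequence and libraries. The 10 rows averaging 5000 units or more had a median of 0.10 and the 6 below that level one of 0.43. The rank correlation and the level of 5000 units were not planned in advance, and the abundant rows include near copies. Among the least abundant rows under other names, Gm6696 and Gm15292 stood at 0.00 and 0.22, and Gm15299 and Gm15293 at 0.35 and 0.60. The sum over the 17 rows in both columns, which the abundant rows govern, was 202370 units (wild type) and 218028 (TLR4ΔIEC), a log2 ratio of 0.11.

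**Figure D3:**
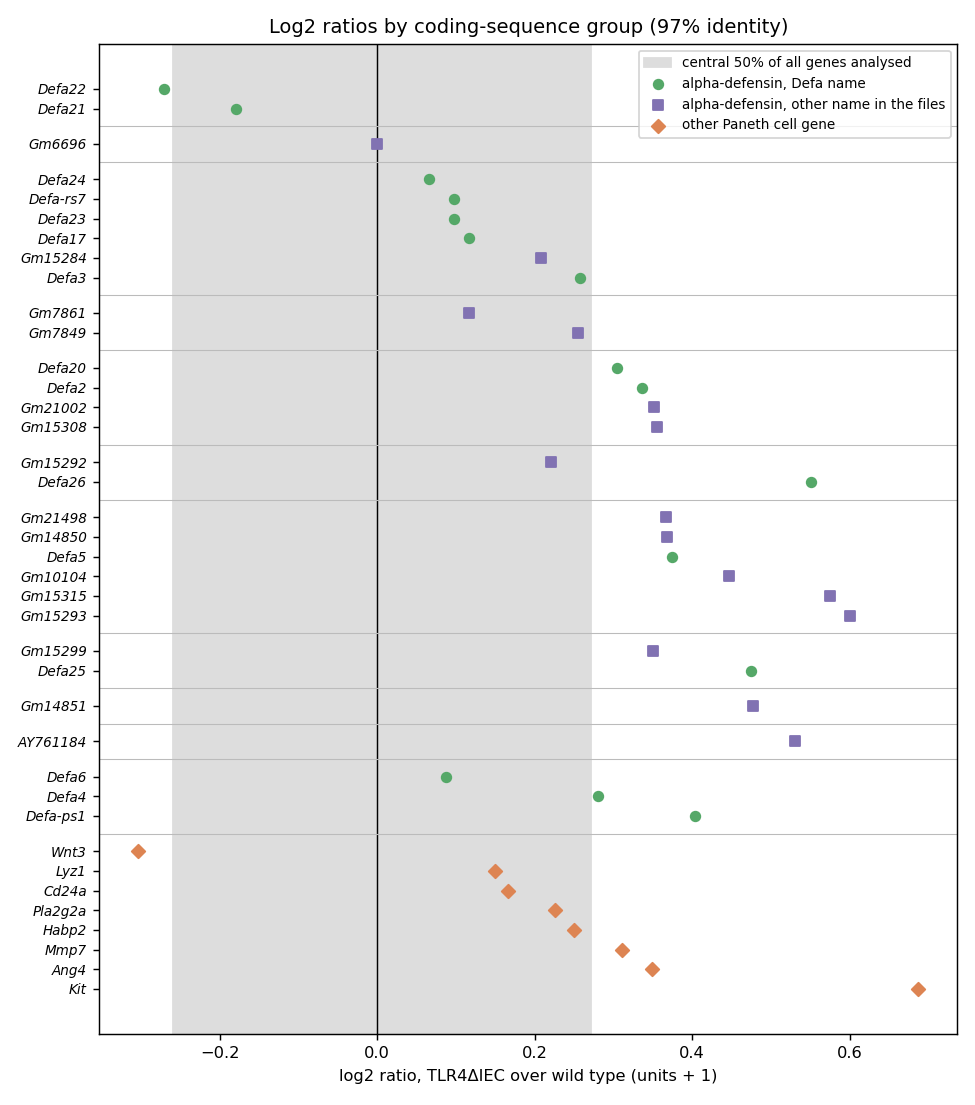
Log2 ratios (TLR4ΔIEC over wild type, units plus 1) of alpha-defensin rows, blocked by coding-sequence group linked at 97% identity, then of Defa6, Defa4 and Defa-ps1 and of the 8 other Paneth cell genes. The grey band is the central 50% of all genes analysed, from -0.26 to 0.27, and the Defa21 and Defa22 block is the only alpha-defensin block left of 0.

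Of 3 pseudogene rows, only Defa-ps1 reached the level for analysis, at a coverage of 87.5 (wild type) and 122 (TLR4ΔIEC), a log2 ratio of 0.40. It shares 67.8% of its 50-base stretches with other genes. Defa-ps12 had a coverage of 0.24 and 0.15, and Defa-ps13 was listed only in the TLR4ΔIEC column, at 0.089. GENCODE places them at chr8:19210462-19212767 and chr8:19300677-19304794, away from the cluster, and RefSeq lists Defb46-ps and Defb54-ps as their synonyms.

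The 15 rows under other names were not chosen by the rule, and RefSeq names all of them Defa. Among them, Gm14851, AY761184, Gm7849 and Gm7861 had 11 cysteine codons. Their last 41 codons held 7 of these, with a spacing unlike that of the members shown above. Their coding sequences were 61.1% to 66.4% identical to those of rows with fewer cysteine codons. All 15 lay above 0, where 52.6% of all genes analysed did. Their median was 0.35, with a range from 0.00 (Gm6696, equal in effect after scaling, with a coverage of 22.6 and 23.7) to 0.60 (Gm15293, 187 and 297). Only Gm15293 reached 1.5-fold, at 1.52, a size reached upward by 6.57% of all genes. They are not independent of the members, since most share sequence with them.

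Along the cluster, from Defa21 at one end to Defa24 709 kb further on, rows with low and high ratios lay side by side. Defa21 and Defa22 lie 137 kb apart, with Defa23, Gm10104, Defa25, Gm14851 and Gm15284 between them at 0.10, 0.45, 0.47, 0.48 and 0.21. Rows of 1 sequence group had closer ratios than rows of different groups. Over all compared rows, the median difference in log2 ratio was 0.08 for 41 pairs within a group and 0.24 for 337 pairs across groups, given as a description because pairs share reads and rows.

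**Figure D4:**
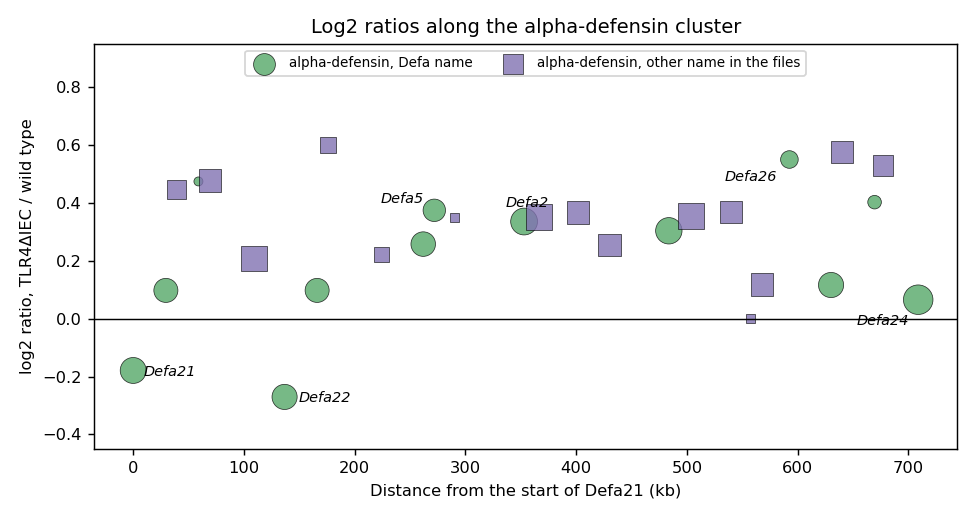
Log2 ratio of 28 alpha-defensin rows against the distance of each transcript from the start of Defa21 (kb), circles for Defa names and squares for other names, with larger symbols for higher mean levels. Defa21 and Defa22 lie below 0 with 5 rows above 0 between them, and Defa24, the largest symbol, lies at 0.07 at the far end.

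Most of the other Paneth cell genes also stood slightly higher in TLR4ΔIEC. Of the 8 genes, 7 had a log2 ratio above 0, against 52.6% of all genes, with a median of 0.24. Lyz1 (chromosome 10, 117287797 to 117292868, minus strand), the lysozyme of Paneth cells that cleaves bacterial cell walls, had a coverage of 6226 (wild type) and 7244 (TLR4ΔIEC), a log2 ratio of 0.15. Its relative Lyz2, the lysozyme of macrophages, was at 471 and 994, a log2 ratio of 1.01, and the macrophage genes Csf1r, C1qb and C1qa were at 0.95, 0.71 and -0.08. The 6 listed macrophage and neutrophil genes in both columns, Lyz2 included, summed to 848 units (wild type) and 1602 (TLR4ΔIEC). Without Lyz2 the other 5 summed to 157 and 212 units, and the neutrophil gene S100a9, under the level for analysis, was lower at -1.52. The part of macrophage RNA in the Lyz1 value was not tested.

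Ang4 (chromosome 14, 51763878 to 51773590, minus strand), a ribonuclease of the angiogenin family with antimicrobial activity, had a coverage of 1471 (wild type) and 1964 (TLR4ΔIEC), a log2 ratio of 0.35. Mmp7 (chromosome 9, 7692090 to 7699585, plus strand), the matrilysin that activates mouse pro-alpha-defensins, had 240 and 312, a log2 ratio of 0.31. The protease and most alpha-defensin rows were thus on the same side of 0. Pla2g2a (chromosome 4, 138831860 to 138835186, plus strand), a secreted bactericidal phospholipase, had 42.1 and 51.7, a log2 ratio of 0.23. It is known to be disrupted in C57BL/6 mice, so its RNA need not stand for active enzyme.

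Cd24a (chromosome 10, 43579169 to 43584265, plus strand), a surface glycoprotein by which Paneth cells can be sorted, had a coverage of 111 (wild type) and 131 (TLR4ΔIEC), a log2 ratio of 0.17. Lymphocytes make it too: the B cell genes Cd79a and Ms4a1 were at -0.06 and -1.38, the latter under the level for analysis, and Cd3e of T cells was at 0.82. The part of lymphocytes in the Cd24a value was not tested. Habp2 (chromosome 19, 56287922 to 56320822, plus strand), a hyaluronan-binding serine protease, was weakly covered at 12.4 and 15.6, a log2 ratio of 0.25.

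The least covered members gave both extremes. Wnt3 (chromosome 11, 103774150 to 103817957, plus strand), a Wnt ligand that Paneth cells supply to neighbouring stem cells, had a coverage of 4.30 (wild type) and 3.52 (TLR4ΔIEC), a log2 ratio of -0.30. Kit (chromosome 5, 75574916 to 75656722, plus strand), the receptor of stem cell factor, had 4.65 and 8.30, a log2 ratio of 0.69 or 1.61-fold. It was the only 1 of the 24 members analysed to reach 1.5-fold, a size reached upward by 6.57% and downward by 10.2% of all genes. With a pseudocount of 5 units its ratio was 0.49, under 1.5-fold.

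Kit is also made by mast cells and by interstitial cells of Cajal, the pacemaker cells of the gut wall. The 8 mast cell markers were all under 5 units, and their summed level was 2.38 units (wild type) and 10.8 (TLR4ΔIEC), with Mcpt2 at 0.20 and 4.63 units. The 5 markers listed for interstitial cells summed to 16.4 and 26.3 units, with Ano1 at 2.96 and 4.58 and Gja1, which many cells make, at 8.08 and 17.0. In both lists the sum was higher in TLR4ΔIEC, as Kit was, although 3 of the 8 mast cell markers and 2 of the 5 others were lower. Their part in the Kit value was not tested.

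Over all 24 members analysed, 21 lay above 0 and 3 below (52.6% and 47.4% of all genes), and their median was 0.25. None differed by 2-fold, a size reached by 1.29% of all genes upward and 2.79% downward. All 24 lay inside the central 95% of the ratios of all genes, from -1.04 to 0.80, 11 lay inside the central 50%, 11 above it and 2 below. Of 103 genes averaging 1000 units or more that are no alpha-defensin or Paneth cell member, a level chosen after values were seen, 35% lay above 0, with a median of -0.11. At the same level, 11 of 13 alpha-defensin members lay above 0, with a median of 0.12.

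Beside the members, 20 further products linked to Paneth cells were listed, of which 15 were analysed. Of these 15, 9 lay above 0 and 6 below (52.6% and 47.4% of all genes), and their median was 0.08. Their spread was wider than that of the members: 4 were at least 2-fold higher, a size reached upward by 1.29% of all genes. These were the mucosal pentraxins Mptx1 (1.72) and Mptx2 (1.70), the lectin Reg3g (1.34) and Lyz2. Reg3b, another lectin, was at 0.44, and Itln1, an intelectin, was nearly equal at 4487 units (wild type) and 4559 (TLR4ΔIEC). The lowest of the 15 ratios was -0.87. Reg3b and Reg3g are also made by other epithelial cells.

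Genes that specify Paneth cells or serve their granules were spread evenly around 0. Of 30 listed, 22 were analysed, 11 above 0 and 11 below, with a median of 0.02. The 4 most covered were Ctnnb1, the beta-catenin of Wnt signalling, at -0.01, Xbp1, a transcription factor of secretory cells, at 0.50, Irgm1, an interferon-inducible GTPase, at 0.93 and the Wnt receptor Fzd5 at 0.18. Of genes picked for their role after values were seen, Atoh1, which commits progenitors to the secretory lineages, was at -0.33, and the autophagy genes Atg5 and Atg16l1 were at 0.05 and 0.09.

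Markers of other cell types of the mucosa were set beside these values. Of the crypt stem cell markers, 4 of 6 were analysed and all 4 lay above 0, where 52.6% of all genes did, with a median of 0.66 and Olfm4 at 0.75. All 7 enterocyte markers analysed lay below 0, where 47.4% of all genes did, with a median of -0.19. Of these, 3 were at least 2-fold lower, a size reached by 2.79% of all genes, namely the apolipoprotein Apoa1 (-1.74), the alkaline phosphatase Alpi (-1.36) and the fatty acid binding protein Fabp2 (-1.17), while the structural protein Vil1 was at -0.01. Goblet cell markers had a median of -0.04, with Zg16 at -0.72 and Spink4 at 0.35. Of 6 enteroendocrine markers analysed, 5 lay below 0 (47.4% of all genes), with a median of -1.06. The hormone genes Sct (-1.75), Nts (-1.72) and Pyy (-1.36) were at least 2-fold lower, as 2.79% of all genes were. The part of these cell types in the members' values was not tested.

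**Figure D5:**
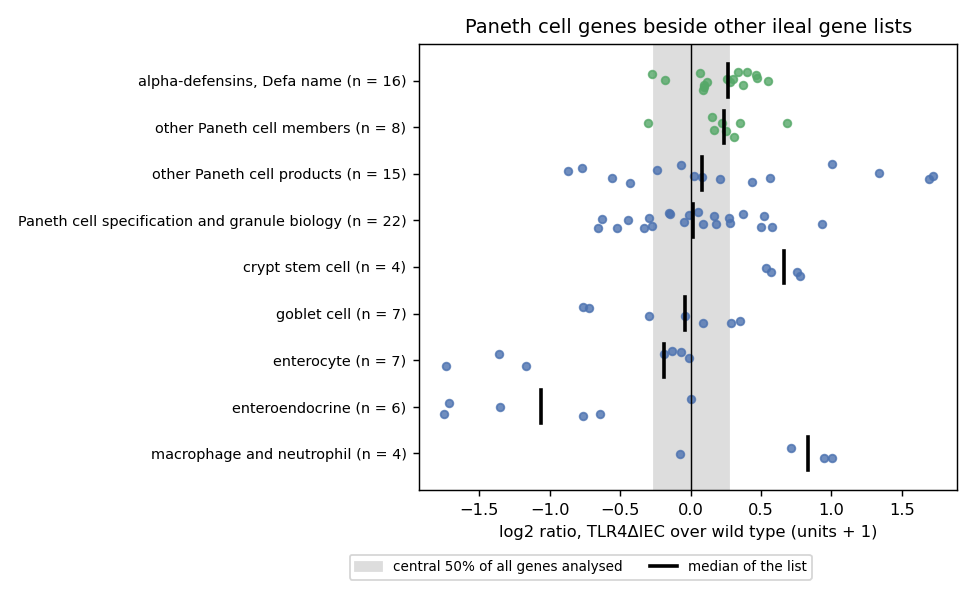
Log2 ratios (TLR4ΔIEC over wild type, units plus 1) of single genes in the member sets (green) and in 7 other lists (blue), with the median of each list as a black bar and the central 50% of all genes in grey. Alpha-defensins and the other Paneth cell members keep within -0.30 and 0.69, while the further Paneth cell products run from -0.87 to 1.72.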

How the data were processed

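Ileal RNA was sequenced in 3 wild type and 3 TLR4ΔIEC mice. Per the labels' protocols, ribosomal RNA was depleted and stranded Ion libraries were made. The deposited values are, per the file headers, average coverage per RefSeq entry, 1 column per genotype. The submitters' processing notes name TopHat2 2.0.10, Bowtie2 2.1.0 and mm10. The handling of multiply matching reads and the read length were not found there, so no counting intervals are printed.

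Rows in both columns were used, with the highest row of a repeated symbol, median-of-ratios scaling, a pseudocount of 1 unit and a minimum mean of 5 units. Read bases are coverage times the length of which both values are whole fractions. No test across mice was possible, and a difference between the pooled columns has no replicate check. Apart from 1 member and 1 marker gene, which enter the counts but are not reported here, all members are named, and of each other list up to 4 of the most abundant genes and those at least 2-fold different, except where the text says otherwise. Members and lists were chosen with earlier results of these data known. Coding sequences were aligned globally with Biopython 1.88 (Python 3.11.15, numpy 2.4.6, pandas 2.3.3). The scaling and length steps were tested on simulated data. Planned protein features were not used here, and other scalings, pseudocounts, filters and length rules were tried.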

Additional observations from a re-analysis of the deposited data

How the results depend on the processing

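Under each of the 5 other scalings, 2 pseudocounts, 3 filters and 2 rules on entries and lengths, 0 members were lower by 1.5-fold or different by 2-fold. Members at least 1.5-fold higher, 1 (Kit) as reported, numbered 2 with scaling to the total, to the total without the 50 highest entries and with coverage as deposited (Kit and Defa26), 4 with quantile normalization (Defa2 among them), and 0 with a pseudocount of 5 units or a filter at 20 units, which leaves Kit out. With the total without the 50 highest entries, the median log2 ratio was 0.37 for the alpha-defensin rows and 0.34 for the other members, and that of the alpha-defensin sum was 0.21. All genes then had a median of 0.12, against 0.03, and 62.1% of them lay above 0, against 52.6%. Of 303 recomputed single-gene values, 0 lay on the other side of 0 and 35 moved by more than 0.1. Quantile normalization sets the highest rows equal, so Defa24 and Defa6 were at 0 and 19 of 24 members lay above 0, where 53.65% of all genes did. With the filter at 20 units 19 of 21 members and 47.0% of all genes did, and with no filter 21 of 25 and 50%. With 1 row per sequence group, an alternative chosen after seeing the data, 16 of 18 members lay above 0, where 52.6% of all genes did. The alpha-defensin median was then 0.36. Defa6, Defa4 and Defa-ps1, without a compared coding sequence, each entered as a group of its own, so near copies may remain among the rows kept. No paired analysis was possible because the deposited columns pool the 3 mice of a genotype, and for the same reason no mouse could be left out. Depth per mouse is unknown.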
